A study of Mus musculus with 16 samples.

Results

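The genes described here are 9 genes of the tight junction: the claudins Cldn2, Cldn3, Cldn7 and Cldn15, the occludin gene Ocln, the tricellulin gene Marveld2, the adhesion molecule gene F11r, and the scaffold genes Tjp1 and Cgn. They were chosen by symbol, matched through the Ensembl gene IDs of the files. All 9 of 9 were found among 37620 gene IDs, and all 9 passed the filter on low counts that left 16558 genes for testing. The tissue was jejunum (proximal part) of male mice of the CBA/J strain aged 8 weeks, and its RNA was sequenced in 16 libraries that form 4 groups of 4 libraries. The groups were irradiated on a diet supplemented with methionine (300%), irradiated on a methionine adequate diet, unirradiated (0 Gy) on the supplemented diet, and unirradiated on the adequate diet. Irradiated mice received gamma radiation at a dose of 8.5 Gy. The design text also gives 6 days, and leaves unsaid whether these count from the start of feeding or from irradiation to tissue collection. RNA came from proximal jejunum tissue with its cell types mixed. Fewer cells of a type and less RNA per cell therefore cannot be told apart in any result below.

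Tight junctions seal the space between neighbouring epithelial cells near their apical side and decide which ions and molecules may pass between the cells. Claudins span the membrane and set the selectivity of the seal: some tighten it, and others form channels for small cations. Occludin, tricellulin and the JAM protein encoded by F11r are further membrane proteins of the junction, and ZO-1 (Tjp1) and cingulin (Cgn) are the plaque proteins that tie it to the actin cytoskeleton. In the mouse small intestine claudin-2 is known as a channel protein of the crypts and claudin-15 as a channel protein found along crypt and villus, and both supply sodium to the lumen for nutrient uptake.

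The promoters of Cldn2, Cldn3 and Cldn15 are shown because the differences between groups that follow turn on these 3 genes. RefSeq windows of 300 bases (250 before to 50 after the annotated start, build GRCm38.p6) were matched by symbol for 9 of 9 genes. Capitals mark the motif matches that were found.
Cldn2 (chrX:139800558-139800857, + strand): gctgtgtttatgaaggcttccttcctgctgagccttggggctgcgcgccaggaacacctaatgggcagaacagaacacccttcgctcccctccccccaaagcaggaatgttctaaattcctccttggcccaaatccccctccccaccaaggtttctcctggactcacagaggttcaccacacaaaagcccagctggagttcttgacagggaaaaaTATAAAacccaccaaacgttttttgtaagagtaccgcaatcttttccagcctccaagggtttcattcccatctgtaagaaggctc
Cldn3 (chr5:134985964-134986263, + strand): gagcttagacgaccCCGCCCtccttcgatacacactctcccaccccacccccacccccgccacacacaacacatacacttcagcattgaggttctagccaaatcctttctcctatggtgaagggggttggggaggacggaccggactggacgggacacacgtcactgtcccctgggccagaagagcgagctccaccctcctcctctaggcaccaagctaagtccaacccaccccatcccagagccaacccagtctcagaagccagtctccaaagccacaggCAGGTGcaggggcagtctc
Cldn15 (chr5:136967619-136967918, + strand): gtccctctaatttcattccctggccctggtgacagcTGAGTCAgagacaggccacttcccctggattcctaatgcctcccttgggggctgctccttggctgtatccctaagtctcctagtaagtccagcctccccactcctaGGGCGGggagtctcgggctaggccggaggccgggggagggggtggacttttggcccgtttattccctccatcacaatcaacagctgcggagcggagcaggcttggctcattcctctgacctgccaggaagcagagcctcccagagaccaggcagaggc

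Both strands were searched for 7 motifs. These were the TATA box motif TATAAA, the Sp1 motif GGGCGG, the Snail E-box motif CAGGTG, the AP-1 motif TGANTCA, the GATA factor motif AGATAA, the HNF1 motif GTTAAT and the CDX motif CAATAAA. The Cldn2 window held TATAAA, which began at position -35 relative to the annotated start, and 13.6% of 32851 mouse promoter windows of the same length held that motif on either strand. The Cldn3 window held CAGGTG at position 32 (20.2% of windows) and GGGCGG on the other strand at position -236 (35.7% of windows). The Cldn15 window held GGGCGG at position -108 and TGAGTCA, a form of the AP-1 motif, at position -214 (7.81% of windows). The GATA factor motif (11.2% of windows), the HNF1 motif (7.10%) and the CDX motif (4.60%) were in none of the 9 genes' windows. These matches describe letters in a window and show no binding.

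Library totals lay between 2566539 and 15510121 counts, and 3 libraries (replicate 1 of the irradiated supplemented, replicate 2 of the irradiated adequate and replicate 1 of the unirradiated adequate group) were under 4000000 counts. The 12 pan-epithelial marker genes, among them Epcam and Vil1, were detected in every library, while Car1, a marker of the large intestine, was at 0 in 16 libraries and Fabp6, a marker of the ileum, had at most 1 count. These 2 belong to a list of 6 genes of other gut segments, with Pdx1, Muc6, Slc10a2 and Aqp8. Of the 6 genes 3 passed the filter on low counts, so Car1 and Fabp6 do not stand for the whole list. These 3 had a summed level of 3.23 to 20.3 CPM per library. After irradiation 1 of the 3 was called lower on the adequate diet and 0 on the supplemented diet. The 6 Paneth cell markers were called higher after irradiation on each diet (6 of 6), with summed levels of 7511 to 11166 CPM (counts scaled to effective library size) in irradiated and 2059 to 3108 CPM in unirradiated libraries on the supplemented diet. On the adequate diet these sums were 5512 to 7980 CPM in irradiated and 1660 to 2438 CPM in unirradiated libraries. Of the lists for other cells, 0 of 8 endothelial genes were called on either diet, 1 of 9 mesenchyme genes on the adequate and 2 of 9 on the supplemented diet rose, and of 8 leukocyte genes 2 rose and 2 fell on each diet. Among all genes 7.13% rose and 6.58% fell on the adequate diet, and 8.03% rose and 7.21% fell on the supplemented diet. The share of counts that fell on short genes (effective length under 200 bases) was 13.0 to 21.9% in irradiated and 7.98 to 10.8% in unirradiated libraries. The part of these shifts in the results below was not tested, except that the comparisons were repeated on protein-coding genes alone.

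Levels of different genes were compared as CPM per kilobase of effective length, averaged over the 16 libraries. Cldn7, a claudin also found along the lateral membrane, had the highest level with 460 CPM per kilobase. Cldn15 followed with 271 and Cldn3, a sealing claudin, with 130 CPM per kilobase. These 3 were also ahead of every other tight junction gene tested.

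F11r stood at 78.3, Cgn at 35.6, Ocln at 33.1, Tjp1 at 23.7, Cldn2 at 18.4 and Marveld2 at 9.49 CPM per kilobase. Over all 16 libraries the ranges of Cgn (22.1 to 59.6), Ocln (22.7 to 41.8), Tjp1 (20.1 to 27.5) and Cldn2 (7.64 to 35 CPM per kilobase) overlapped. Within each group Cgn and Ocln overlapped too. Ocln lay above Tjp1 without overlap in every group but the unirradiated adequate one. In that group Tjp1 (20.5 to 24.0) lay above Cldn2 (7.64 to 11.1 CPM per kilobase), while they overlapped in the other groups. Cldn2 and Marveld2 (6.39 to 11.2 CPM per kilobase over all libraries) were level in the unirradiated adequate group. Their means there were 9.53 ± 1.55 for Cldn2 and 9.45 ± 0.748 CPM per kilobase for Marveld2 (SD, n = 4). In every other group Cldn2 lay above Marveld2 without overlap. The nearest were 11.4 to 31.2 against 8.81 to 11.2 CPM per kilobase in the unirradiated supplemented group. The order of the 9 genes was the same in the deposited TPM, another scale per length. The effective length that RSEM gave Cldn2 varied between 1.81 and 3.0 kb among libraries, which makes its level per kilobase less certain than that of Cldn15 (1.59 to 1.75 kb). The same holds for Tjp1 (4.09 to 6.58 kb), F11r (1.67 to 2.34 kb) and Marveld2 (1.66 to 2.36 kb).

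**Figure D1:**
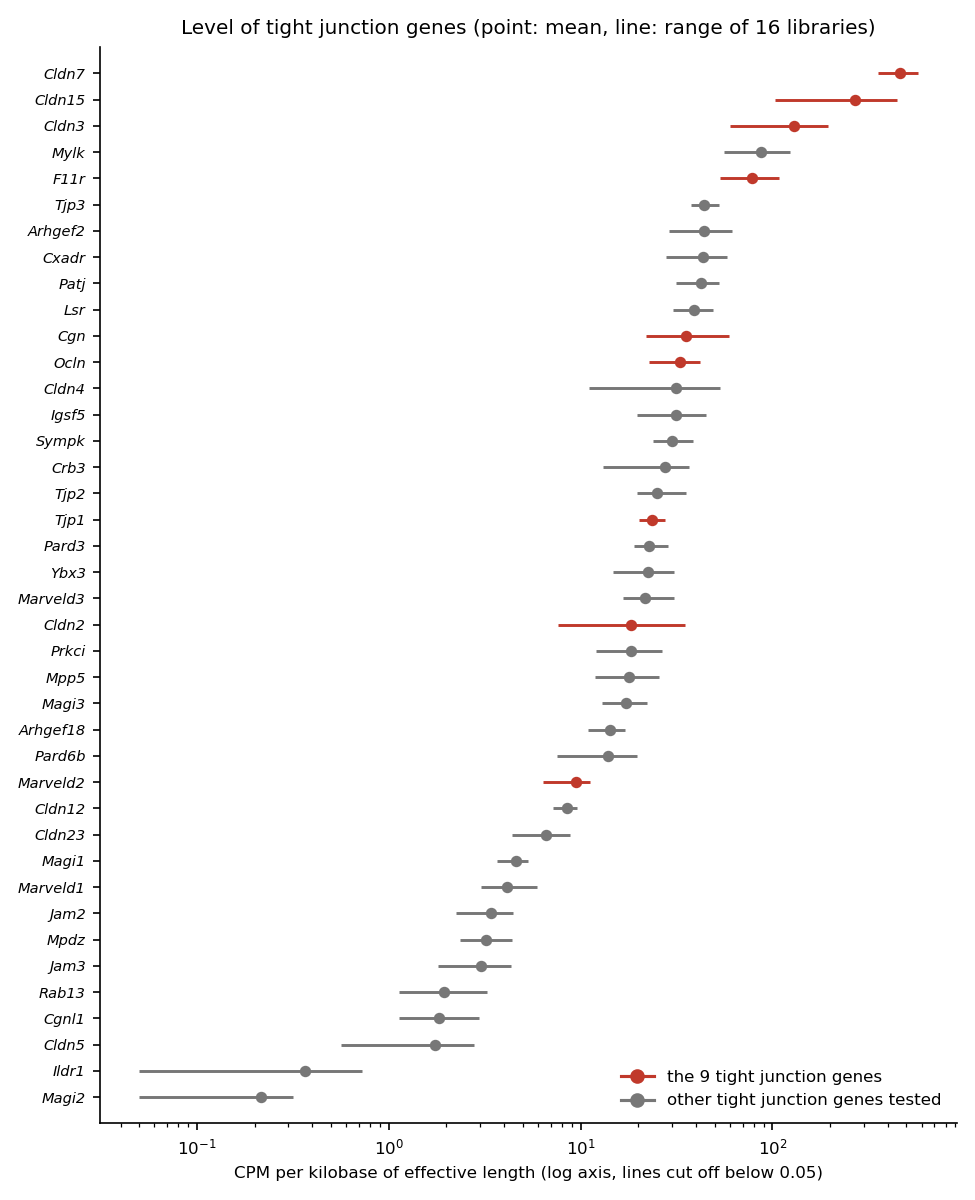
Level of the 9 tight junction genes (red) and of the 31 other tight junction genes tested (grey) in CPM per kilobase of effective length on a log axis, as the mean (point) and range (line) of 16 libraries. Cldn7, Cldn15 and Cldn3 stand highest, at 460, 271 and 130 CPM per kilobase.

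Claudins took unequal shares of the level per kilobase summed over all genes with a claudin symbol, which took in Cldnd1, the gene of a claudin-like protein. Cldn7 made up 47.6%, Cldn15 26.7%, Cldn3 13.1% and Cldn2 2.03% of it on average. Of the claudins outside the 9 genes, Cldn4, a sealing claudin, had 31.6 CPM per kilobase, Cldn12 8.50, Cldn23 6.58 and Cldn5, the claudin of endothelium, 1.74. Cldn1 (at most 7 counts in a library), Cldn8 (at most 2 counts) and Cldn18 (at most 1 count) were too low to be tested, and Cldn13, Cldn16 and Cldn17 were at 0 in 16 libraries.

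The first comparison asked what radiation did on each diet, with edgeR's quasi-likelihood test and p-values adjusted over all 16558 genes. On the adequate diet Cldn2 was higher after irradiation and was the 1 gene of the 9 called at an adjusted p under 0.05. Among all genes tested 13.7% were called in this comparison (7.13% higher and 6.58% lower), so 1 of 9 is near the background and is no result about the gene list. On the supplemented diet 0 of 9 genes were called, against 15.2% of all genes (8.03% higher and 7.21% lower), while DESeq2 called 2 of the 9 and 2897 of all genes, and limma voom 2 of the 9 and 2696 of all genes. At an unadjusted p under 0.05 in edgeR there were 3 of the 9 genes on each diet, beside 29.4% of all genes on the adequate and 29.3% on the supplemented diet. Averaged over both diets, Cldn15 and Cldn3 fell and Ocln rose, which makes 3 of 9 genes against 31% of all genes (15.7% higher and 15.3% lower), again near the background. Scaled to pan-epithelial genes Cgn (-0.40, edgeR adjusted p 0.0126) and Marveld2 (-0.25, 0.0368) were called in place of Ocln. Without supplemented unirradiated replicate 2, Cldn2 was called (0.65, 0.0443) in place of Ocln.

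**Figure D2:**
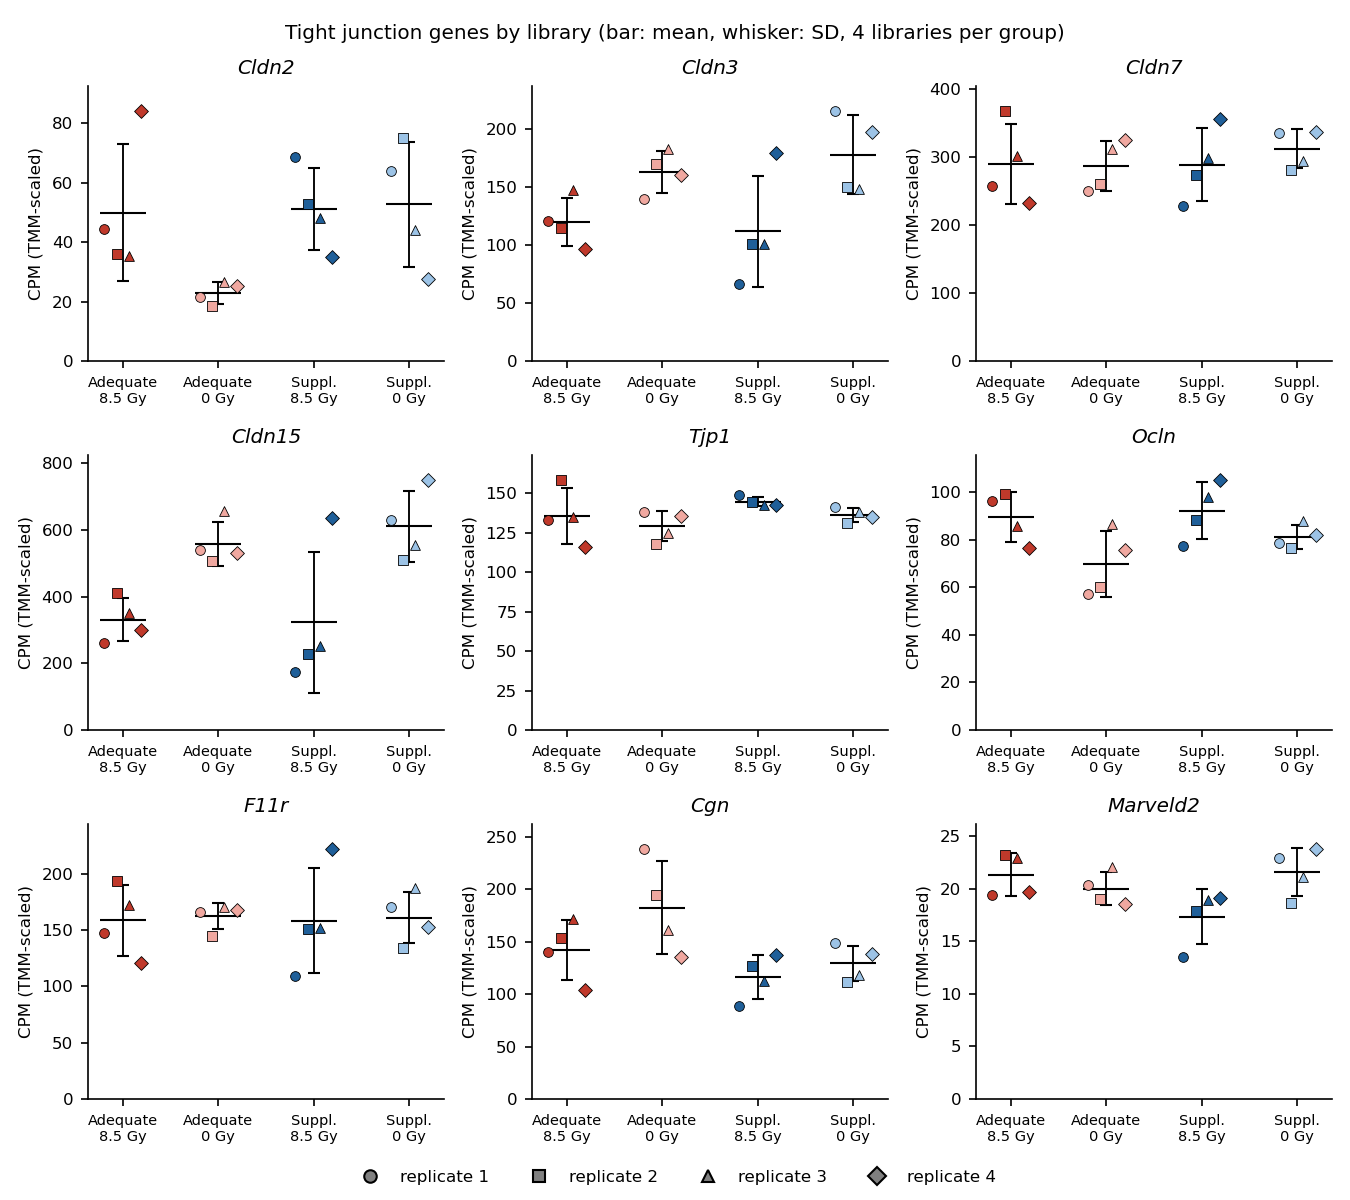
TMM-scaled CPM of the 9 tight junction genes in each of the 16 libraries (symbols by replicate number), with the mean (bar) and SD (whisker) of 4 libraries per group. Cldn2 is lowest in the unirradiated adequate libraries, at 18.4 to 26.6 CPM, and Cldn15 in supplemented irradiated replicate 4, at 637 CPM, stands far above the other 3 libraries of its group.

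Cldn2, the crypt cation channel, had 44.3, 36.1, 35.3 and 84.1 CPM in the irradiated libraries on the adequate diet, and 21.5, 18.4, 26.6 and 25.2 CPM in the unirradiated ones. Every irradiated library lay above every unirradiated library, and replicate 4 was more than the rest of its group. The log2 fold change was 1.14 ± 0.33 (SE, n = 4 libraries a group), that is 2.2-fold, with an adjusted p of 0.0326 by edgeR. Without irradiated replicate 4 it was 0.75 with an edgeR adjusted p of 0.103, and it also missed the threshold without irradiated replicate 1 or without any 1 of the 4 unirradiated libraries (adjusted p 0.0524 to 0.0927). Scaling to pan-epithelial genes gave 1.02 with an adjusted p of 0.0744 by edgeR, and testing with no filter on low counts an adjusted p of 0.0555, so the call was lost under 11 of 28 alternatives.

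Among mice on the supplemented diet Cldn2 had 68.7, 53.0, 48.1 and 35.1 CPM in irradiated libraries and 64.1, 75.1, 44.2 and 27.5 CPM in unirradiated libraries. These groups overlapped across nearly their whole range. Radiation changed it by -0.05 (log2), with a 95% interval of -0.73 to 0.62. The order of the group means was supplemented unirradiated (52.7 ± 21.1 CPM, SD, n = 4), supplemented irradiated (51.2 ± 13.9), adequate irradiated (49.97 ± 23.1) and adequate unirradiated (22.9 ± 3.72), and the first 3 differed by less than their SDs.

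Crypt markers are given beside Cldn2 because the gene is known from crypts. The 10 genes of the crypt base and cycling list, among them Lgr5 and Mki67, were all detected in every library, and 2 of 10 rose after irradiation on each diet, against 7.13% of all genes on the adequate and 8.03% on the supplemented diet, while none fell. Their summed level was 729 to 1657 CPM in irradiated and 603 to 700 CPM in unirradiated libraries on the adequate diet. With supplementation it was 919 to 1347 CPM in irradiated and 671 to 851 CPM in unirradiated libraries. The library with the most Cldn2, adequate irradiated replicate 4, also had the highest crypt sum and the highest sum of the 9 mesenchyme genes, at 2781 CPM against 1112 to 2359 CPM in the other 15 libraries. The part of crypt or mesenchyme content in the Cldn2 difference was not tested.

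Cldn15, the sodium channel claudin, had 261, 411, 352 and 299 CPM in irradiated libraries on the adequate diet, and 539, 506, 656 and 530 CPM in unirradiated libraries. The groups did not overlap, which held for 2 of the 9 genes (Cldn2 and Cldn15) and for 19.5% of all genes in this comparison. Its log2 fold change was -0.75 ± 0.31 (SE) with an edgeR adjusted p of 0.110, so the difference missed the threshold in the fit of all 4 groups. It passed under 4 of 28 alternatives, among them a fit of these 2 groups alone (-0.72, edgeR adjusted p 0.0273), scaling to pan-epithelial genes (-0.92, 0.0291) and leaving out supplemented irradiated replicate 4, which enters the shared estimate of spread (-0.75, 0.00702).

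Supplemented mice had Cldn15 levels of 174, 228, 251 and 637 CPM in irradiated and 629, 509, 554 and 750 CPM in unirradiated libraries. All irradiated libraries but replicate 4 lay below every unirradiated one. Its log2 fold change was -0.92 ± 0.31 (SE) with an edgeR adjusted p of 0.0522, and it passed under 8 of 28 alternatives, with DESeq2 (-0.92, adjusted p 0.0251) and limma voom (-1.16, 0.0212) among them. Without irradiated replicate 4 it was -1.49 with an edgeR adjusted p of 7.61e-05.

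Averaged over both diets, Cldn15 fell by 0.84 ± 0.22 (SE) on the log2 scale, with an edgeR adjusted p of 0.00771. It was lower in 7 of 8 irradiated libraries than in every unirradiated library, and it stayed called under each of 27 alternatives, with log2 fold changes of -1.12 to -0.73. As a share of the summed claudin level, Cldn15 took 21.9 ± 2.02% in irradiated and 32.6 ± 2.52% in unirradiated libraries on the adequate diet (SD, n = 4). The share on the supplemented diet was 20.4 ± 6.56% in irradiated and 32.0 ± 2.31% in unirradiated libraries. This share was examined after the values of Cldn15 were known and was not tested.

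Cldn3, the sealing claudin, had 121, 115, 147 and 96.7 CPM in irradiated and 140, 170, 183 and 161 CPM in unirradiated libraries on the adequate diet. Its levels on the supplemented diet were 66.0, 101, 101 and 180 CPM in irradiated and 216, 150, 149 and 198 CPM in unirradiated libraries. The groups overlapped on each diet, through 1 irradiated library in either case, and replicate 4 was again the high one on the supplemented diet. The log2 fold changes were -0.45 ± 0.23 on the adequate and -0.66 ± 0.23 on the supplemented diet (SE), with edgeR adjusted p-values of 0.211 and 0.0621. Scaled to pan-epithelial genes both passed (-0.61, 0.0355, and -0.81, 0.00780), and the second passed under 6 of 28 alternatives, with DESeq2 (adjusted p 0.0426) and limma voom (0.0405) among them. Without supplemented irradiated replicate 4 the value on that diet was -0.99 with an adjusted p of 0.00152. Averaged over both diets Cldn3 fell by 0.56 ± 0.16 (SE), with an edgeR adjusted p of 0.0164, and the call was kept at the 0.05 threshold under every alternative (adjusted p 0.000395 to 0.0425).

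Absorptive enterocyte genes varied widely among the irradiated libraries. The 12 listed genes, among them Sis, Lct and Apoa4, were detected in every library, and 2 of 12 on the adequate and 1 of 12 on the supplemented diet rose after irradiation while none fell, beside the same shares of all genes (7.13% and 8.03% higher). Their summed level was 16877 to 50779 CPM in irradiated and 32430 to 41218 CPM in unirradiated libraries on the adequate diet. It was 15235 to 62710 CPM in irradiated and 29349 to 38889 CPM in unirradiated libraries on the supplemented diet.

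Supplemented irradiated replicate 4, where Cldn15 and Cldn3 were high, had the highest absorptive level of the 16 libraries, with a mean log2 CPM of 11.60. Replicate 1 of the same group, where both genes were lowest, had the lowest, at 9.74, and was among the 3 libraries under 4000000 counts. In the adequate irradiated group replicate 4 had the lowest absorptive level (9.80), with the lowest Cldn3 (96.7 CPM) and with Cldn15 at 299 CPM. Cldn15 was lowest there in replicate 1 (261 CPM), at an absorptive level of 10.79. Within each irradiated group the library with the most Cldn2 had the lowest absorptive level.

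Adequate irradiated replicates 2 and 3 had mean log2 CPM of 11.43 and 11.21 over the absorptive genes, above the 10.52 to 10.90 of all unirradiated libraries. Their Cldn15 levels of 411 and 352 CPM were below every unirradiated library. Relative to the mean of the absorptive list, the log2 difference of Cldn15 between irradiated and unirradiated libraries was -0.84 on the adequate diet, where the exact two-sided permutation p was 0.114. It was -1.04 on the supplemented diet with an exact permutation p of 0.0286, the smallest that 4 against 4 libraries allow. After adjustment over 36 such permutation tests these were 0.643 and 0.514. These tests compare Cldn15 relative to the list and do not divide its difference into parts. The part of absorptive enterocyte content in the Cldn15 difference was not tested.

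**Figure D3:**
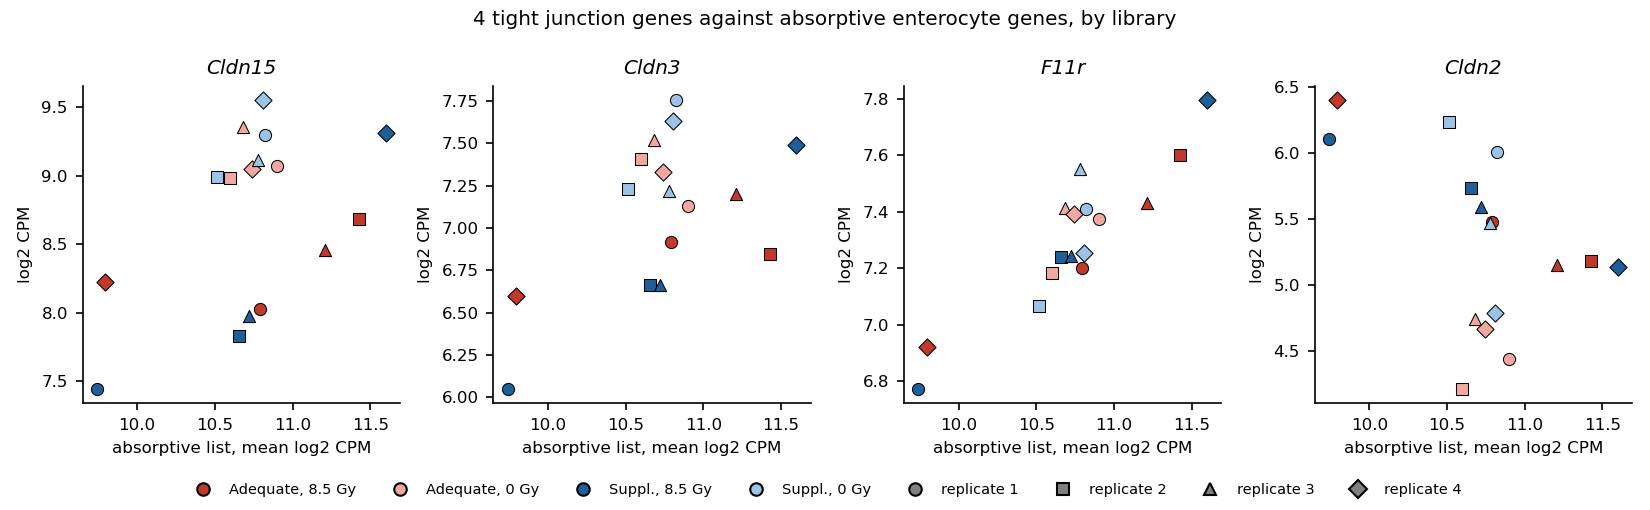
Log2 CPM of Cldn15, Cldn3, F11r and Cldn2 (vertical axes) against the mean log2 CPM of 12 absorptive enterocyte genes (horizontal axes) in 16 libraries, coloured by group and shaped by replicate number. Irradiated libraries spread from 9.74 to 11.60 on the horizontal axis and unirradiated libraries from 10.52 to 10.90.

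Ocln, the gene of occludin, had 96.4, 99.2, 85.9 and 76.4 CPM in irradiated and 57.1, 59.96, 86.5 and 75.5 CPM in unirradiated libraries on the adequate diet. Its supplemented libraries had 77.5, 88.4, 98.0 and 105 CPM in irradiated and 78.5, 76.5, 87.9 and 82.1 CPM in unirradiated libraries. The groups overlapped on both diets. Averaged over diets Ocln rose by 0.27 ± 0.10 (log2, SE) with an edgeR adjusted p of 0.0477. This call was lost under 17 of 27 alternatives, among them DESeq2 size factors (adjusted p 0.0583) and the scaling to pan-epithelial genes (0.12, adjusted p 0.419), and leaving out single libraries gave 0.23 to 0.33.

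Marveld2, the gene of tricellulin, which sits where 3 cells meet, had the lowest mean level per kilobase of the 9 genes. It had 13.5 to 19.1 CPM in irradiated and 18.6 to 23.8 CPM in unirradiated libraries on the supplemented diet, and 19.4 to 23.2 CPM in irradiated and 18.5 to 22.1 CPM in unirradiated libraries on the adequate diet. The log2 fold changes were -0.29 ± 0.12 and 0.09 ± 0.13 (SE), and neither was called by edgeR (adjusted p 0.115 and 0.704). The 2 responses differed by -0.38 ± 0.17 (SE) with an unadjusted p of 0.0441 in edgeR and an adjusted p of 1.

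F11r, the gene of the JAM-A adhesion protein, had 109 to 222 CPM in irradiated and 134 to 187 CPM in unirradiated libraries on the supplemented diet. On the adequate diet it had 121 to 194 CPM in irradiated and 145 to 170 CPM in unirradiated libraries. The irradiated libraries spread wider and on both sides of the unirradiated ones. Its log2 fold change was -0.02 (95% interval -0.42 to 0.38) on the supplemented and -0.04 (-0.43 to 0.36) on the adequate diet.

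Tjp1, the gene of the ZO-1 scaffold, varied least. It had 142 to 149 CPM in irradiated and 131 to 141 CPM in unirradiated libraries on the supplemented diet. These groups did not overlap, which was so for 1 of the 9 genes and for 18.7% of all genes, yet the log2 fold change was small at 0.08, with a 95% interval of -0.14 to 0.31. On the adequate diet Tjp1 had 116 to 158 CPM in irradiated and 118 to 138 CPM in unirradiated libraries (0.07, interval -0.16 to 0.29). Both estimates turned below 0 when libraries were scaled to pan-epithelial genes, to -0.05 and -0.09.

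Cgn, the gene of cingulin, had 140, 154, 172 and 104 CPM in irradiated and 238, 194, 162 and 135 CPM in unirradiated libraries on the adequate diet. With supplementation it had 88.3, 127, 113 and 137 CPM in irradiated and 148, 112, 118 and 138 CPM in unirradiated libraries. The groups overlapped on both diets. The log2 fold changes were -0.36 ± 0.19 and -0.15 ± 0.19 (SE), with edgeR adjusted p-values of 0.230 and 0.649.

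Cldn7, the most abundant of the 9 per kilobase, had 232 to 367 CPM in irradiated and 250 to 325 CPM in unirradiated libraries on the adequate diet. Supplemented libraries had 227 to 355 CPM in irradiated and 280 to 337 CPM in unirradiated libraries. Its log2 fold changes of 0.01 (95% interval -0.34 to 0.37) and -0.11 (-0.46 to 0.24) had different signs, and the first turned negative under some scalings.

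**Figure D4:**
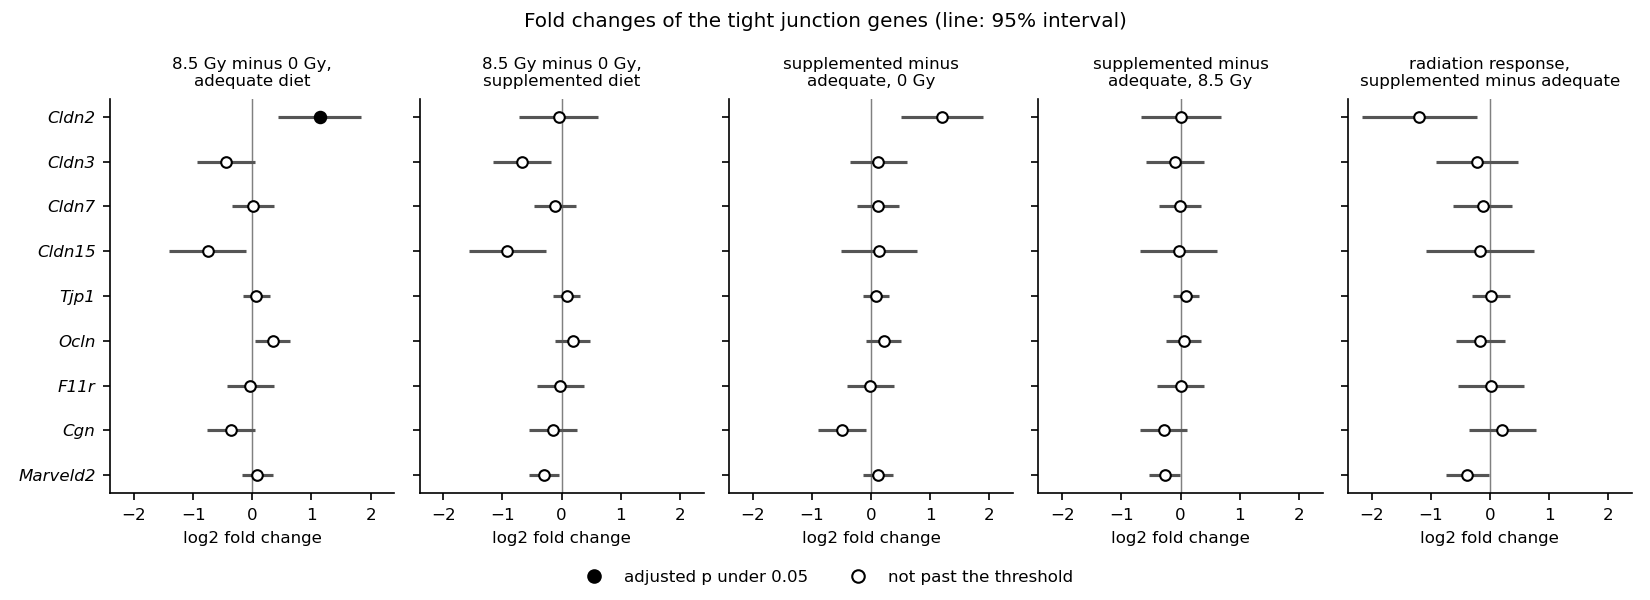
Log2 fold changes of the 9 genes (points) with 95% intervals (lines) in 5 comparisons, filled where the adjusted p was under 0.05. Cldn2 after irradiation on the adequate diet, at 1.14, is the filled point. The intervals of Cldn7, Tjp1 and F11r include 0 throughout.

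The second comparison asked what methionine supplementation did at each dose. In unirradiated mice 0 of 9 genes were called by edgeR, against 0.199% of all genes, with 2 of the 9 and 11.9% of all genes at an unadjusted p under 0.05. DESeq2 called 1 of the 9 and 229 of all genes, and limma voom 0 of the 9 and 51 of all genes. Cldn2 had the widest difference, with the values of 64.1, 75.1, 44.2 and 27.5 CPM on the supplemented and 21.5, 18.4, 26.6 and 25.2 CPM on the adequate diet given above. All 4 supplemented libraries lay above all adequate ones, the nearest pair being 27.5 and 26.6 CPM. Such a separation was seen for 1 of the 9 genes and for 9.14% of all genes. The difference was 1.2 ± 0.33 (log2, SE), 2.29-fold, with an unadjusted p of 0.00232 and an adjusted p of 0.161 in edgeR. DESeq2 gave 1.2 with an adjusted p of 0.0175, and over all alternatives the adjusted p lay between 0.0175 and 0.402. The crypt list summed to 671 to 851 CPM on the supplemented and 603 to 700 CPM on the adequate diet in these libraries, with 0 of 10 genes called.

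The radiation comparison on the adequate diet and the supplementation comparison in unirradiated mice share the 4 unirradiated adequate libraries, where Cldn2 was low. Their log2 fold changes for Cldn2 of 1.14 and 1.2 are therefore not independent. Against those same libraries Cldn15 was -0.75 and 0.13, Cldn3 -0.45 and 0.12, and Cgn -0.36 and -0.49.

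Cgn, the cingulin gene, had 148, 112, 118 and 138 CPM on the supplemented and 238, 194, 162 and 135 CPM on the adequate diet without radiation. All but the lowest adequate library lay above all supplemented ones. They differed by -0.49 ± 0.19 (log2, SE) with an unadjusted p of 0.0190 and an adjusted p of 0.309 in edgeR. The remaining 7 genes had estimates between -0.01 and 0.21.

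In irradiated mice edgeR called 0 of 9 genes between the diets, and 0% of all genes, with 1 of the 9 and 871 of all genes at an unadjusted p under 0.05 in edgeR. DESeq2 called 6 and limma voom 0 of all genes, and both called 0 of the 9. Marveld2 was that 1 gene, at 13.5, 17.9, 18.9 and 19.1 CPM on the supplemented and 19.4, 23.2, 22.9 and 19.7 CPM on the adequate diet. Its groups did not overlap, which was so for 1 of the 9 genes and for 3.14% of all genes. The log2 fold change was -0.27 ± 0.12 (SE) with an edgeR adjusted p of 0.937. Cldn2 and Cldn15 differed by 0.01 and -0.03 (log2), but with 95% intervals of -0.67 to 0.68 and -0.68 to 0.61.

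The third comparison asked whether the radiation response differed between diets. Called were 0 of 9 genes and 0% of all genes, with 2 of the 9 and 738 of all genes at an unadjusted p under 0.05 in edgeR. DESeq2 called 2 and limma voom 0 of all genes, and both called 0 of the 9. For Cldn2 the response with supplementation minus the response without it was -1.19 ± 0.45 (log2, SE), with a 95% interval of -2.16 to -0.22, an unadjusted p of 0.0194 and an adjusted p of 1. For Cldn15 the difference of responses was -0.16 and for Cldn3 -0.22, with intervals of -1.07 to 0.74 and -0.90 to 0.47. Averaged over doses, supplementation gave 0 called among the 9 genes and 0.0966% among all genes, with 2 of the 9 and 13.3% of all genes at an unadjusted p under 0.05 in edgeR. DESeq2 called 0 of the 9 and 291 of all genes, and limma voom 0 of the 9 and 12 of all genes. Cldn2 was at 0.60 ± 0.23 and Cgn at -0.39 ± 0.13 (log2, SE) there, with edgeR adjusted p-values of 0.280 and 0.230.

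Values were also taken relative to the epithelium, as each gene's log2 CPM minus the mean of the 12 pan-epithelial genes of the same library. Of these 12 genes, 3 were called higher and 1 lower after irradiation on the adequate diet, beside 7.13% and 6.58% of all genes. On the supplemented diet 2 were called higher and 0 lower, beside 8.03% and 7.21%. Their median log2 fold change was 0.11 on each diet, so values on this scale also carry the shift of the list. On this scale the differences between irradiated and unirradiated libraries on the adequate diet were 0.93 for Cldn2, -0.88 for Cldn15 and -0.57 for Cldn3, without overlap for these 3 of 9 genes, against 19.9% of all genes. Marveld2 differed by -0.40 between irradiated and unirradiated libraries on the supplemented diet (1 of 9 genes without overlap, against 18.2%). It differed by -0.31 between the supplemented and the adequate diet after irradiation (1 of 9, against 2.76%), and Cgn by -0.51 between these diets without radiation (1 of 9, against 8.46%). These make 6 of 36 differences without overlap, against 12.3% over all genes. Each had an exact permutation p of 0.0286, the smallest possible with 4 against 4 libraries, and an adjusted value of 0.171. None could pass 0.05 after adjustment, whatever its size, unless many more of the 36 tests sat at that bound. The adjusted value therefore allows no conclusion. With the absorptive list in place of the pan-epithelial list, 2 of 36 differences showed no overlap, against 3.95% over all genes and the same 4 comparisons. On the pan-epithelial scale but without supplemented irradiated replicate 4 there were 11 of 36, against 17.6% over all genes, with 3 libraries left in that group.

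The ratio of the 2 channel claudins, Cldn15 to Cldn2 on the per kilobase scale, was 8.43, 16.3, 14.2 and 5.09 in irradiated and 35.9, 39.4, 35.2 and 30.1 in unirradiated libraries on the adequate diet. In supplemented libraries it was 3.62, 6.15, 7.47 and 25.9 in irradiated and 14.0, 9.69, 18 and 39.0 in unirradiated libraries. The adequate groups were far apart, and the supplemented groups overlapped through irradiated replicate 4. This ratio was chosen after its values were seen, and it was not tested.

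Other genes of the tight junction showed few differences. Of 47 listed genes 31 were tested. On the adequate diet 1 of 31 was called after irradiation and on the supplemented diet 3 of 31, against 13.7% and 15.2% of all genes. Mylk, the gene of myosin light chain kinase, which contracts the actin ring at the junction and also acts in smooth muscle, fell on both diets. It averaged 295 ± 64.1 CPM in irradiated and 438 ± 53.3 CPM in unirradiated libraries on the supplemented diet, and 311 ± 57.5 CPM in irradiated and 477 ± 58.5 CPM in unirradiated libraries on the adequate diet (SD, n = 4). Its log2 fold changes were -0.57 and -0.61 with edgeR adjusted p-values of 0.0360 and 0.0277. The mesenchyme genes, with the smooth muscle genes Acta2, Myh11 and Des among them, summed to 1855 to 2359 CPM in irradiated and 1288 to 1859 CPM in unirradiated libraries on the supplemented diet, and to 1245 to 2781 CPM in irradiated and 1112 to 1474 CPM in unirradiated libraries on the adequate diet.

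Magi3, a scaffold gene, and Prkci, the atypical protein kinase C of the polarity complex, rose on the supplemented diet by 0.45 and 0.48 (log2, edgeR adjusted p 0.0310 and 0.0306). On the adequate diet they were at 0.17 and 0.41 (adjusted p 0.431 and 0.0682), and the difference of their responses was not called for either (adjusted p of 1). The median log2 fold change of the 31 genes was 0.08 on the adequate and 0.06 on the supplemented diet, beside 0.01 for all genes on each. Averaged over diets 6 of 31 were called, 3 in each direction, against 31% of all genes: Cldn12, Magi3 and Prkci rose, and Mylk, Cxadr and Sympk fell.

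Among the 17 tested genes of adherens junctions and desmosomes, Nectin3, an adhesion gene, rose on the adequate diet by 0.36 (edgeR adjusted p 0.0396). Nectin3 was the 1 of 17 called there, against 13.7% of all genes. It averaged 81.2 ± 8.73 CPM in irradiated and 63.1 ± 7.37 CPM in unirradiated libraries (SD, n = 4). None of the 17 was called by edgeR on the supplemented diet, against 15.2% of all genes, and their median log2 fold change there was 0.14. Averaged over diets 2 of 17 were called higher and 0 lower, against 15.7% and 15.3% of all genes. None of the 31 or the 17 genes was called between diets, against 0.199% of all genes at 0 Gy and 0% at 8.5 Gy.

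The genes whose log2 CPM was most like that of each of the 9 over the 16 libraries were taken from 9140 genes with a mean log2 CPM of at least 3. Cldn15 was most like Ocel1 (Pearson r 0.978), Fam234a (0.975) and Slc2a2 (0.975), the last being the glucose transporter GLUT2 of enterocytes. Cldn3 was most like Aes (0.975), Cyp4f13 (0.973) and Btnl2 (0.964). Cldn2 was most like Fpgs (0.901), Slc7a1 (0.899), a transporter of cationic amino acids, and Ephb2 (0.896), a receptor known from crypts.

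Ocln was most like Erbin (0.931) and Epcam (0.920), F11r like Sec23a (0.943), Cldn7 like 4833439L19Rik (0.936), Cgn like Cnst (0.942) and Marveld2 like Sys1 (0.902). Tjp1, which varied least, had the weakest likeness, with Serp1 at 0.836. After the group means were removed, r was 0.957 for Cldn15 with Ocel1, 0.970 for Cldn3 with Aes and 0.819 for Cldn2 with Fpgs. These values describe 16 libraries that share depth and tissue composition, and no test was made.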

How the data were processed

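RNA of the proximal jejunum was depleted of ribosomal RNA, fragmented and made into libraries with a small RNA kit, per the labels' protocols. Bowtie2 2.2.9, RSEM 1.3.0, edgeR 3.2.4 and the build NCBIM37 are named, per the submitters' processing notes. Each library came with 1 deposited table that holds, per the file headers, expected counts (estimates by RSEM for every gene) and TPM. Symbols came from GENCODE M21 of a later build, for 32897 of 37620 IDs, so no gene position is given and only the RefSeq promoter windows carry coordinates of GRCm38.p6.

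Expected counts were rounded, genes were filtered with filterByExpr on the 4 groups, and TMM factors, a mean per group and robust quasi-likelihood tests were fitted over all 16 libraries (R 4.3.3, edgeR 4.0.16). Benjamini-Hochberg adjustment covered all 16558 genes tested. Calls were made where the adjusted p was under 0.05, standard errors (SE) were taken as the log2 fold change over the root of the F statistic, and intervals are at 95%. The genes named are the 9 members, genes of the fixed marker and junction lists, and genes from the 3 most like each member. All 3 are named for Cldn2, Cldn3 and Cldn15, the first 2 for Ocln and the first 1 for each other member. The members and lists were chosen with earlier results of these data known. TPM served only to order genes within libraries: genes with effective lengths under 200 bases held 84.9 to 90.9% of the deposited TPM in irradiated and 75.0 to 79.9% in unirradiated libraries, so TPM was not compared between doses. Pearson r between libraries of a group was 0.922 to 0.983, and their counts differed by at least 10.3 times counting error (chi-square per degree of freedom). The labels name no batch and no animal, so p-values measure the spread between libraries, which may be technical. Replicate numbers follow accession order. Alternatives were other scalings, filters and tests (DESeq2 1.42.0, limma 3.58.1) and leaving out libraries.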

Additional observations from a re-analysis of the deposited data

Results flagged for a closer look

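Cldn15 in supplemented irradiated replicate 4 stood at 637 CPM, against 174 to 251 CPM in the other 3 libraries of its group, a gap of 0.833 of the group's range. It was 1 of 36 groups (9 genes in 4 groups) with a library this far from the rest, where chance gives about 1 in 20. The same library had the highest level of absorptive enterocyte genes of all 16 libraries, with a sum of 62710 CPM. The part of this in its Cldn15 level was not tested.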

How the results depend on the processing

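No paired analysis was possible because replicate numbers follow accession order and pair no libraries. Over 63 results (9 genes in 7 comparisons) and 1737 values under alternatives, 1554 kept their direction and their side of the threshold, 29 lost a call, 30 gained one and 124 changed sign; the cause was not tested. The sign changes belong to results whose estimate was at most 0.22 (log2) in size and not called. The order of levels was the same for 9 of 9 genes in TPM.

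Counts of the 9 genes called are given here with the count among all genes in brackets. Radiation on the adequate diet had 1 as reported (2270). It had 3 with scaling to pan-epithelial genes (2480), 0 with no filter (1690) and 2 with only the groups compared (1896). At an adjusted p under 0.01 it had 0 (871), and without the 3 libraries under 4000000 counts 0 (1438). Without replicate 4 of both irradiated groups it had 2 (3156). Leaving out single libraries gave 0 to 2, with 2 (2787) without supplemented irradiated replicate 4. Radiation on the supplemented diet had 0 as reported (2523). It had 2 with upper-quartile factors (2490), 1 on protein-coding genes (2190) and 3 with scaling to pan-epithelial genes (2584). The stricter filter gave 1 (2415), DESeq2 2 (2897) and limma voom 2 (2696). Leaving out replicate 4 of both irradiated groups gave 2 (4328). With single libraries left out there were 0 to 2, with 2 (3627) without supplemented irradiated replicate 4. Supplementation at 0 Gy had 0 as reported (33), 1 with DESeq2 (229) and 1 without both replicates 4 (233). Averaged radiation had 3 as reported (5136) and 1 at an adjusted p under 0.01 (2942). It had 4 with scaling to pan-epithelial genes (1278 higher and 3969 lower among all genes) and 2 to 3 when single libraries were left out. Averaged supplementation had 0 as reported (16) and 2 without both replicates 4 (1137). Differences of members without overlap relative to pan-epithelial genes numbered 6 of 36 (16.7%), against 12.3% over all genes. Against the absorptive list they numbered 2 of 36 (3.95% over all genes). They numbered 6 to 11 when single libraries were left out, with 11 (17.6% over all genes) without supplemented irradiated replicate 4. Scaling to pan-epithelial genes moved the median log2 fold change of all genes to -0.14 and -0.13 for radiation on the adequate and supplemented diet, beside 0.01 with TMM, and gave 563 higher and 1917 lower on the adequate diet, beside 1180 and 1090, and 638 and 1946 on the supplemented diet, beside 1329 and 1194. Leaving out both replicates 4, and the 3 shallow libraries, was chosen after seeing the data.

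The sign changes by value (log2) were these. Under DESeq2 size factors F11r had 0.00036 in averaged supplementation, and under the DESeq2 test 0.0011. With upper-quartile factors Cldn7 had -0.0015 for radiation on the adequate diet and 0.0061 for supplementation at 8.5 Gy. On protein-coding genes Cldn2 had -0.015 and F11r -0.014 for supplementation at 8.5 Gy, and Tjp1 -0.0021 for the difference of responses. Scaled to pan-epithelial genes, radiation on the adequate diet gave Cldn7 -0.16, Tjp1 -0.094 and Marveld2 -0.070, and on the supplemented diet Tjp1 -0.046. On that scale supplementation at 8.5 Gy gave Cldn2 -0.055, Ocln -0.00021 and F11r -0.047, averaged radiation Tjp1 -0.070, and averaged supplementation Cldn3 -0.060, Cldn7 -0.0010 and Cldn15 -0.028. With no filter F11r had 0.016 for supplementation at 0 Gy, -0.0034 for the difference of responses and 0.014 for averaged supplementation. There Cldn7 had 0.0022 for supplementation at 8.5 Gy and Tjp1 -0.012 for the difference of responses. With limma voom F11r had -0.094 for supplementation at 8.5 Gy and -0.070 for the difference of responses, and Cldn3 -0.039 and Cldn15 -0.094 for averaged supplementation. With only the groups compared Cldn7 had 0.00054 for supplementation at 8.5 Gy.

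Without the 3 libraries under 4000000 counts, Cldn7 had -0.17 for radiation on the adequate diet, and F11r 0.12 on the supplemented diet, 0.0039 for supplementation at 0 Gy and 0.13 for averaged supplementation. Supplementation at 8.5 Gy then gave Cldn2 -0.26, Cldn3 0.069, Cldn7 0.23 and Cldn15 0.30, and the difference of responses Cldn3 0.0079, Cldn7 0.16, Cldn15 0.18 and Ocln 0.034. Without replicate 4 of both irradiated groups, F11r had 0.074 for radiation on the adequate diet and Cldn2 0.086 on the supplemented diet. Supplementation at 8.5 Gy then gave Ocln -0.086 and F11r -0.31, the difference of responses Tjp1 -0.049, F11r -0.30 and Cgn -0.0083, and averaged supplementation Cldn3 -0.19, Cldn7 -0.045 and Cldn15 -0.26.

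When single libraries were left out, radiation on the adequate diet gave Cldn7 -0.12 to 0.11, Tjp1 -0.011 to 0.14 and F11r -0.14 to 0.075. On the supplemented diet it gave Cldn2 -0.27 to 0.17 and F11r -0.23 to 0.12. Supplementation at 0 Gy gave F11r -0.091 to 0.069. At 8.5 Gy it gave Cldn2 -0.16 to 0.39, Cldn3 -0.42 to 0.085, Cldn7 -0.12 to 0.13, Cldn15 -0.60 to 0.17, Ocln -0.020 to 0.12 and F11r -0.20 to 0.14. The difference of responses gave Cldn7 -0.24 to 0.0090, Cldn15 -0.73 to 0.039, Tjp1 -0.056 to 0.094 and F11r -0.19 to 0.15. Averaged radiation gave F11r -0.13 to 0.041 and Cldn7 -0.12 to 0.00027. Averaged supplementation gave Cldn3 -0.15 to 0.10, Cldn15 -0.23 to 0.15 and F11r -0.11 to 0.067.

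The 9 genes had 46 to 7665 counts per library, and precision was limited by the spread between the 4 libraries of a group.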
